A study of Rattus norvegicus with 8 samples.

Results

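The ductus arteriosus (DA) was compared with the aorta in newborn Fischer344 (F344) rats, an inbred strain, on 4 of the 8 arrays of the series. These are the 2 arrays labelled as F344 ductus and the 2 labelled as F344 aorta, and the other 4 hold the same vessels of Brown-Norway (BN), a second inbred strain. All animals were full-term neonates sampled 1 h after birth, with no treatment or engineered allele named in the labels. RNA came from pooled tissue, 150 ng of it was labelled per array, and no label ties the replicates to different animals or litters. P-values therefore measure only the spread between these samples, which may be technical. Each array, an Affymetrix Rat Gene 1.0 ST, gave log2 values for 14506 named genes. Of these, 1283 belong to the olfactory, vomeronasal, taste and trace amine receptor families and are set aside, which left 13223 genes.

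Before birth the ductus carries blood from the pulmonary trunk past the lungs into the aorta. After birth its smooth muscle contracts as oxygen rises and prostaglandin E2 falls, and intimal cushions of smooth muscle cells and loose matrix help to seal it. The adjoining aorta remains a wide vessel and builds a wall of collagen and elastic layers, and part of the smooth muscle of both vessels comes from the neural crest.

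In the ductus 468 genes were higher than in the aorta and 742 were lower, which is 3.54% and 5.61% of those measured (limma, Benjamini-Hochberg adjusted p under 0.05 over all 14506 genes). A difference of at least 2-fold, 1 on the log2 scale, was reached by 100 higher and 157 lower genes. The ductus and aorta arrays did not overlap for any of the 1210 called genes. Groups of 2 separate easily, however, and 3157 genes in all had both ductus arrays above both aorta arrays and 5473 had them below. The smallest difference called was 0.39 and the largest not called was 1.48, with a median standard error of 0.15.

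Dim genes made up much of the higher calls. Of the 468 higher genes, 258 were dim, meaning that the brighter vessel lay under 7.01, the median of all values, against 35 of the 742 lower genes. Among all 13223 genes outside the receptor families, called or not, 4422 were dim. Split by mean level instead of by the brighter vessel, genes outside the receptor families had a median difference of 0.13 at or under 7.01 and -0.17 above it. The receptor families, set aside because their rise may be background, had medians of 5.97 and 6.04 on the ductus arrays and 5.04 and 5.17 on the aorta arrays. Their part in the rise of other dim genes was not tested, and genes that lead the account below were required to lie above 7.01 in the brighter vessel.

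**Figure D1:**
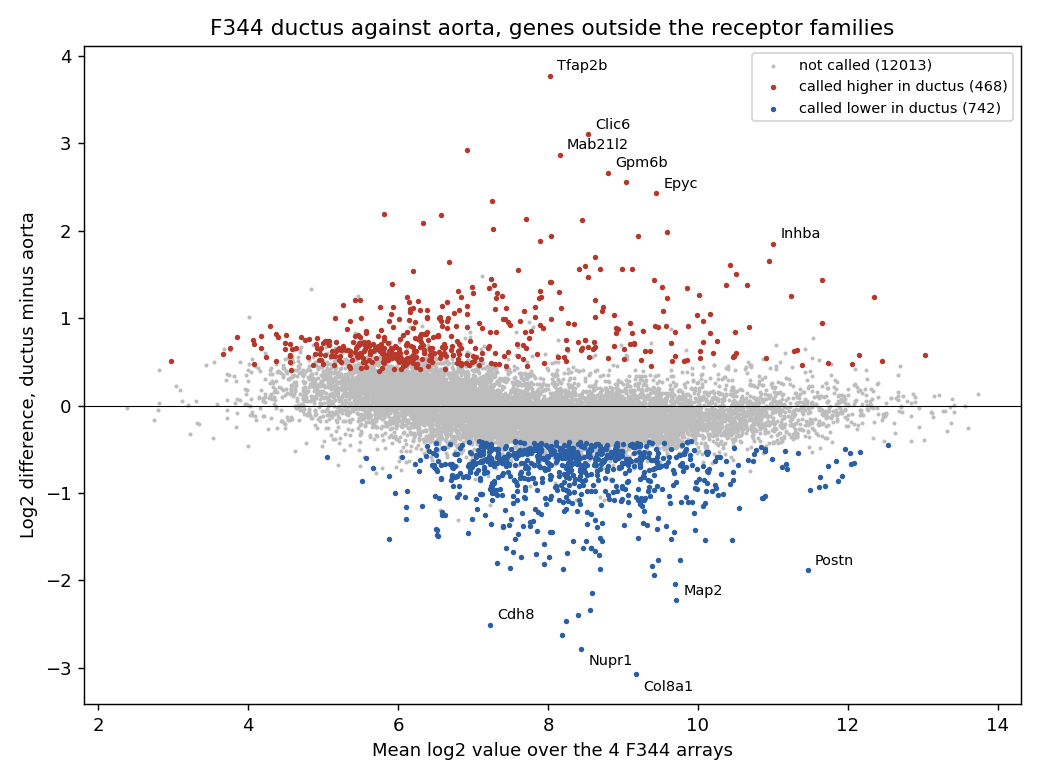
Log2 difference of F344 ductus minus aorta for 13223 genes (vertical axis) against the mean log2 value of the 4 F344 arrays (horizontal axis), with 468 genes called higher in red, 742 called lower in blue and the others in grey. Red points crowd at low values and blue points at middle and high values, and labelled genes such as Tfap2b (3.77) and Col8a1 (-3.07) stand apart from both.

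Centring the arrays on brighter genes turned the balance of calls, whereas the other rescalings tried did not. Higher genes made up 38.7% of calls as deposited and 79.6% with this centring, which shifted the median of all genes from -0.08 to 0.13. Their share was 40.3% under cyclic loess and 31% when quantile normalization was repeated. Dropping dim genes, which is a filter and leaves the scale as it was, gave 23.8%. With 2 arrays a vessel, each array mattered. The counts of higher and lower genes were 185 and 294 without F344 DA replicate 1, 113 and 178 without F344 DA replicate 2, 118 and 190 without F344 aorta replicate 1, and 137 and 236 without F344 aorta replicate 2. Without BN DA replicate 1 or 2, which share only the variance estimate, they were 725 and 1168. A core of 84 higher and 148 lower genes was called as deposited, with each F344 array left out in turn and after each of 3 rescalings (repeated quantile normalization, cyclic loess and the centring above), 8 settings in all, and is called the core below. The 3 rescalings removed no gene beyond those lost when an array was left out, so membership of the core rests on the fits with an array left out.

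The gene with the largest rise was Tfap2b, which encodes the AP-2 beta transcription factor, known from human families in which its mutation leaves the ductus open. Its log2 values were 9.90 and 9.92 on the ductus arrays and 6.06 and 6.21 on the aorta arrays. That is 13.7-fold higher in the ductus, a log2 difference of 3.77 ± 0.33 (SE, limma adjusted p = 0.000516; Entrez 301285). Clic6, of the chloride intracellular channel family (Entrez 304081), lay at 10.02 and 10.15 in the ductus and at 7.19 and 6.77 in the aorta. It was 8.6-fold higher (limma adjusted p = 0.000252). The developmental gene Mab21l2 (Entrez 680102) followed with 9.56 and 9.63 against 6.72 and 6.72, a 7.32-fold difference. The aorta arrays of all these genes sat near or below the array median, whereas the ductus arrays sat well above it.

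Gpm6b, a membrane glycoprotein best known from neurons and glia, read 10.03 and 10.23 in the ductus and 7.53 and 7.40 in the aorta. Epyc (epiphycan), a small proteoglycan of cartilage matrix, read 10.64 and 10.68 against 8.20 and 8.26, with the smallest adjusted p among the leading genes (limma adjusted p = 0.000231). Tnn (tenascin-N) and Tgfbi, both secreted matrix proteins, were 5.09-fold and 4.37-fold higher. Inhba, which encodes the activin A subunit, read 11.88 and 11.98 against 10.16 and 9.99 (Entrez 29200). The matrix-cleaving proteases Adamts9 and Adamts1 were 3.97-fold and 3.15-fold higher. Adamts9 read 10.64 and 10.52 in the ductus against 8.71 and 8.47.

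The rest of the 20 leading higher genes ranged from 4.54-fold to 3.02-fold. They were Dlgap5l2, Lypd6, the sulfotransferase Sult1c2, the ageing-related membrane protein Kl (klotho), the dipeptidase Dpep1, the actin-linked adaptor Sorbs2, the growth factor Ptn (pleiotrophin), the gastrin-releasing peptide receptor Grpr, the small heat shock protein Hspb1 and the guidance ligand Sema3a. In each the lower ductus array exceeded the higher aorta array by at least 1.29 on the log2 scale. All but Dpep1 and Hspb1 belonged to the core, and both were lost only when an F344 array was left out.

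**Figure D2:**
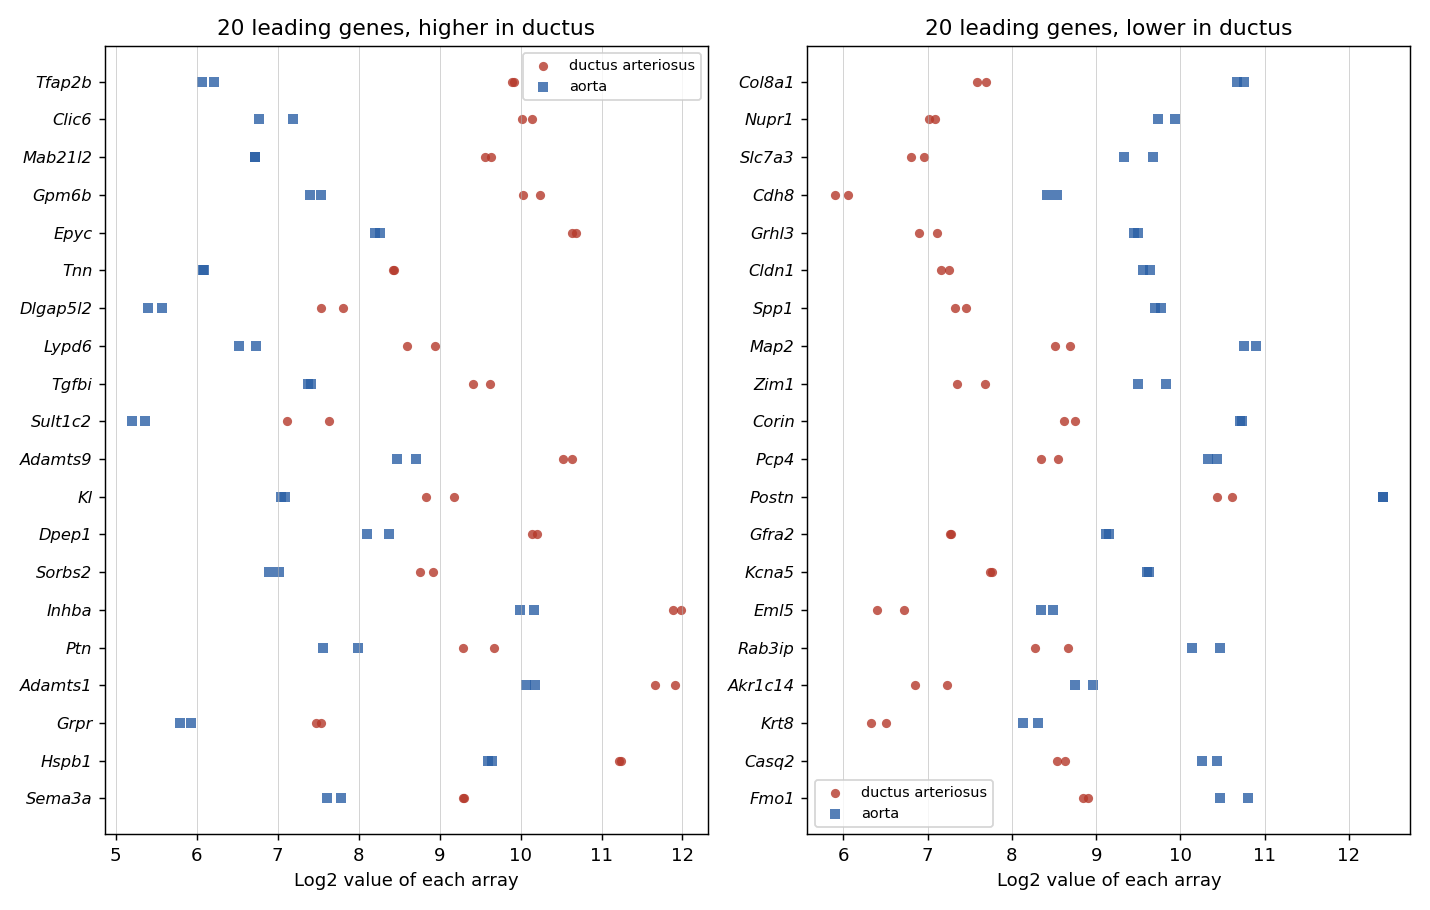
Log2 value of every F344 array for the 20 leading genes higher in the ductus (left) and the 20 lower in it (right), with red circles for ductus and blue squares for aorta. In every row the 2 ductus arrays lie close together and apart from the 2 aorta arrays, by at least 1.29 in the left panel and at least 1.47 in the right.

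The largest fall was that of Col8a1, a short-chain collagen of vessel walls (Entrez 304021). Its ductus arrays lay at 7.70 and 7.59 and its aorta arrays at 10.68 and 10.75, an 8.42-fold lower level (log2 difference -3.07 ± 0.26, SE; limma adjusted p = 0.000407). Nupr1, a small nuclear protein induced by cell stress (Entrez 100912108), read 7.09 and 7.02 against 9.93 and 9.74 and was 6.88-fold lower. Slc7a3, a transporter of cationic amino acids, read 6.81 and 6.95 against 9.33 and 9.68. In these genes the ductus lay near the array median and the aorta far above it.

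The other leading lower genes are given by what they encode, in an order made after their values were seen. They included the cadherin Cdh8 (5.67-fold lower), the tight junction claudin Cldn1 (5.25-fold), the transcription factor Grhl3 (5.53-fold) and keratin Krt8 (3.48-fold). The secreted proteins among them were Spp1 (osteopontin, 5.07-fold) and Postn (periostin, 3.69-fold). Postn read 10.61 and 10.43 in the ductus and 12.41 and 12.40 in the aorta. Also lower were the potassium channel Kcna5, the calcium store protein Casq2 (3.4-fold), the calmodulin-binding Pcp4 (3.83-fold), the microtubule protein Map2 (4.68-fold) and the neurotrophic receptor Gfra2 (3.65-fold). Zim1, Corin (the protease that activates natriuretic peptide), Eml5, Rab3ip, Akr1c14 and the flavin monooxygenase Fmo1 completed the 20. All but Eml5 and Fmo1 belonged to the core.

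Promoters are shown for leading genes because the gene with the largest rise encodes a DNA-binding factor, AP-2 beta, so that the letters it is known to bind can be set beside the calls. RefSeq sequences (assembly GRCr8) of 250 bases before to 50 bases after the start were matched by gene to 10853 of the 13223 genes, to 380 of the 468 higher and to 594 of the 742 lower ones. Both strands were searched for the AP-2 motif GCCNNNGGC, the T-box motif TCACACCT, the hypoxia response motif ACGTG, the cAMP response motif TGACGTCA, the RBPJ motif of the Notch pathway TGGGAA, and the CArG box of smooth muscle genes. No motif contains the letters of another. Among the leading genes, 12 of the 20 higher and 18 of the 20 lower ones had an entry, and Tfap2b, Clic6, Mab21l2 and Gpm6b had none. The 250 bases before the start follow, with motif letters in capitals and the rest in lower case, for every leading gene with an AP-2 match, namely Adamts9 (chr4:127019877-127020126, minus strand), Inhba (chr17:53804509-53804758, minus), Hspb1 (chr12:26432302-26432551, minus) and Zim1 (chr1:76164958-76165207, plus), the first 3 higher in the ductus and Zim1 lower:
Adamts9: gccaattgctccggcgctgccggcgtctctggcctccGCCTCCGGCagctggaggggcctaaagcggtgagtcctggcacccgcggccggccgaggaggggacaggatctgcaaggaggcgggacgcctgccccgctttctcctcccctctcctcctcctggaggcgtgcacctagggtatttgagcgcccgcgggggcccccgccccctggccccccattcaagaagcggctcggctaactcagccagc
Inhba: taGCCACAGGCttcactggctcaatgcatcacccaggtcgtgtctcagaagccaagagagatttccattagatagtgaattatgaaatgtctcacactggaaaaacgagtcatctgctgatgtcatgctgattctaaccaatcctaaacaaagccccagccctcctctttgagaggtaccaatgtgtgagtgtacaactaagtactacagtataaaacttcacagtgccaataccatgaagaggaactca
Hspb1: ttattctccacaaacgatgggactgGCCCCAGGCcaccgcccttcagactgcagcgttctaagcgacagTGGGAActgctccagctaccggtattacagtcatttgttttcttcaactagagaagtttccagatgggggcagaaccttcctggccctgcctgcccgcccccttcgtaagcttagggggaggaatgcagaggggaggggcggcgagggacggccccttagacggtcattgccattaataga
Zim1: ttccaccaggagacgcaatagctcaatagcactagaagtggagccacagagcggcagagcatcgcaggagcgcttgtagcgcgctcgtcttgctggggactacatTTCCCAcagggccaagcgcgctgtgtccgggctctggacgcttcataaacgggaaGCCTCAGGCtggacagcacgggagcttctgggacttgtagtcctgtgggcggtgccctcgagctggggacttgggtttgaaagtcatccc

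The AP-2 match lay 213 to 205 bases before the start in Adamts9, 248 to 240 in Inhba, 225 to 217 in Hspb1 and 90 to 82 in Zim1, and the other capitals in Hspb1 and Zim1 are RBPJ letters. For contrast, the same stretch is given for Epyc (chr7:34323082-34323331, plus) and Col8a1 (chr11:56246532-56246781, plus), which held no match in these bases, and for Nupr1 (chr1:190645902-190646151, minus) and Kcna5 (chr4:161043810-161044059, minus), which did:
Epyc: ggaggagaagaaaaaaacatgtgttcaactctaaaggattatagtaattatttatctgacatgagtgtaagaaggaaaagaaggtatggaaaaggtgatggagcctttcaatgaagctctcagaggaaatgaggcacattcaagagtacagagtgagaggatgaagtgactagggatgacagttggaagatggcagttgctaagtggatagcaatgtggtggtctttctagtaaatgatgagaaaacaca
Col8a1: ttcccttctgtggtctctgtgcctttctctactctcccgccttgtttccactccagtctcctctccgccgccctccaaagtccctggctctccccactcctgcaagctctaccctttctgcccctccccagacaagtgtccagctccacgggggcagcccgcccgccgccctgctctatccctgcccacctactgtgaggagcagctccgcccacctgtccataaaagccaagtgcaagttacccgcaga
Nupr1: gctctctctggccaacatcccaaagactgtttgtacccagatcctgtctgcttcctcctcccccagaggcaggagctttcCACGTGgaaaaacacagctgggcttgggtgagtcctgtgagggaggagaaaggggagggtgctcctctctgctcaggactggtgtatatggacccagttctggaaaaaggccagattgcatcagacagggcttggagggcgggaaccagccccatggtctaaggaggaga
Kcna5: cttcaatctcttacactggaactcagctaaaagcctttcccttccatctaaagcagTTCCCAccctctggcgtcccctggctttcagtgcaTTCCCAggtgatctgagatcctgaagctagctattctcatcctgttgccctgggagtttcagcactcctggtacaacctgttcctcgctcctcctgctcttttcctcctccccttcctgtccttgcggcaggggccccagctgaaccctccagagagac

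The capitals in Nupr1 are a palindrome that reads as the hypoxia response motif on either strand, and those in Kcna5 are 2 RBPJ matches, 194 to 189 and 159 to 154 bases before the start. Over the whole 300 bases, an AP-2 match was held by 22.9% of all 10853 promoters, 17.6% of those of higher genes and 30.3% of those of lower genes. Base composition differed alongside, with a median GC content of 59.3%, 51.8% and 62.3%. Among brighter genes the shares were 25.8%, 25.7% and 30.9%, and the median GC contents 61.7%, 61.3% and 62.7%. The RBPJ letters were in 23.3% of all promoters, 26.8% of higher and 19.4% of lower genes. The hypoxia response letters were in 23.8%, 18.2% and 24.2%, those of the T-box motif in 0.977%, 1.05% and 1.18%, of the cAMP response motif in 2.71%, 1.32% and 1.35%, and of the CArG box in 1.31%, 2.11% and 0.842%. These shares describe letters in a window and were not tested.

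To describe pathways, 30 gene lists and 18 cell type marker lists were used, with 1316 genes measured. Their counts are read against the 3.54% called higher and 5.61% called lower over all genes, and against the overall median of -0.08. Among the 8800 genes whose brighter vessel exceeded 7.01, 210 were higher and 707 lower, and the median was -0.16. Many lists had fewer calls with 1 F344 array left out, and some had a different balance after centring on brighter genes, so these counts follow the ones as deposited.

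The collagen chains that passed were all lower. Of 24 genes 0 were higher and 7 lower, with a median difference of -0.27 that stayed below 0 under each of the 3 rescalings. Beside Col8a1 these were the fibril-forming chains Col11a1 (-1.07), Col5a2 (-0.88), Col3a1 (-0.69), Col5a1 (-0.53) and Col27a1 (-0.50), and the fibril-associated Col14a1 (-0.64). Col5a2 read 9.73 and 9.62 in the ductus and 10.53 and 10.59 in the aorta, and Col3a1, a main fibrillar collagen of arteries, read 11.34 and 11.44 against 11.99 and 12.16. Leaving out an F344 array left 3 or 4 lower chains, with 3 both without F344 DA replicate 2 and without F344 aorta replicate 2, centring left 4, and Col8a1, Col11a1 and Col5a2 were in the core.

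Most elastic fibre genes that passed were lower too. Of 21 genes 1 was higher and 6 lower, with a median of -0.21 as deposited and 0 after centring on brighter genes. The crosslinking enzymes Loxl1 (-0.96) and Lox (-0.45) and the microfibril and fibre proteins Ltbp2 (-1.05), Fbln2 (-0.66), Mfap5 (-0.63) and Fbn1 (-0.53) were lower, whereas Ltbp1, which stores latent TGF-beta, was higher (0.63). Eln itself, which encodes elastin, read 13.40 and 13.56 in the ductus and 13.67 and 13.80 in the aorta and did not pass (-0.25 ± 0.13, SE; limma adjusted p = 0.217). Loxl1 was in the core. Without F344 DA replicate 2, and likewise without F344 aorta replicate 2, only 1 lower gene was left in the list, and without either other F344 array 2 were left.

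Proteoglycans and matricellular proteins split. Of 30 proteoglycan and hyaluronan genes 3 were higher, Epyc, Fmod (fibromodulin, 1.12) and the syndecan Sdc4 (0.51), and 5 were lower, Omd (-1.35), Aspn (-0.80), the hyaluronidase Hyal1 (-0.71), the glypican Gpc3 (-0.54) and the hyaluronan receptor Hmmr (-0.44). The hyaluronan synthase Has2 read 7.76 and 7.83 against 7.65 and 7.31 and did not pass (0.32 ± 0.27, SE). Without a given F344 array 1 or 2 higher members and 1 lower member remained called. After centring the counts were 4 higher and 2 lower. Of 19 matricellular genes, which encode matrix proteins that signal to cells, 3 were higher, Tnn, Tgfbi and Ccn1 (0.51), and 5 were lower, Spp1, Postn, Ccn5 (-1.53), Sparcl1 (-0.93) and Ccn4 (-0.85). The number of lower members was 5 without each F344 array as well. After centring 7 were higher and 5 lower. Ccn1 and Ccn5, of one family, lay at 12.77 and 12.67 against 12.21 and 12.19, and at 8.96 and 8.79 against 10.37 and 10.43.

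Matrix receptors and proteases also went both ways. The integrin subunit Itgb8, which helps to activate TGF-beta, was higher (8.62 and 8.83 against 7.38 and 7.24; 2.67-fold), as was the laminin chain Lama1 (1.08). Itga7, a laminin receptor of muscle, was lower (-1.20), with the basement membrane protein Nid2 (-0.95), Itgb4 (-0.81) and Itga4 (-0.56). Among 34 proteases and inhibitors 5 were higher, Adamts9, Adamts1, Adamts3 (0.73), the gelatinase Mmp2 (0.58) and the plasminogen activator Plat (0.56). The inhibitors Timp4 (-1.45) and Timp3 (-0.74) were lower, with Adamts12 (-0.91), Adamts2 (-0.67) and Adamts15 (-0.65). Timp4 read 7.18 and 7.43 in the ductus against 8.72 and 8.79, and Adamts9, Adamts1, Itgb8, Itga7 and Timp4 were in the core. Without an F344 array 2 higher and 1 or 2 lower members of the protease list passed, and after centring 7 and 2. Of the basement membrane and integrin list, 1 or 2 higher and 1 or 2 lower members passed without an F344 array, and 3 and 3 after centring. Fibronectin, Fn1, lay between 13.33 and 13.46 on all 4 arrays (0.08 ± 0.12, SE).

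**Figure D3:**
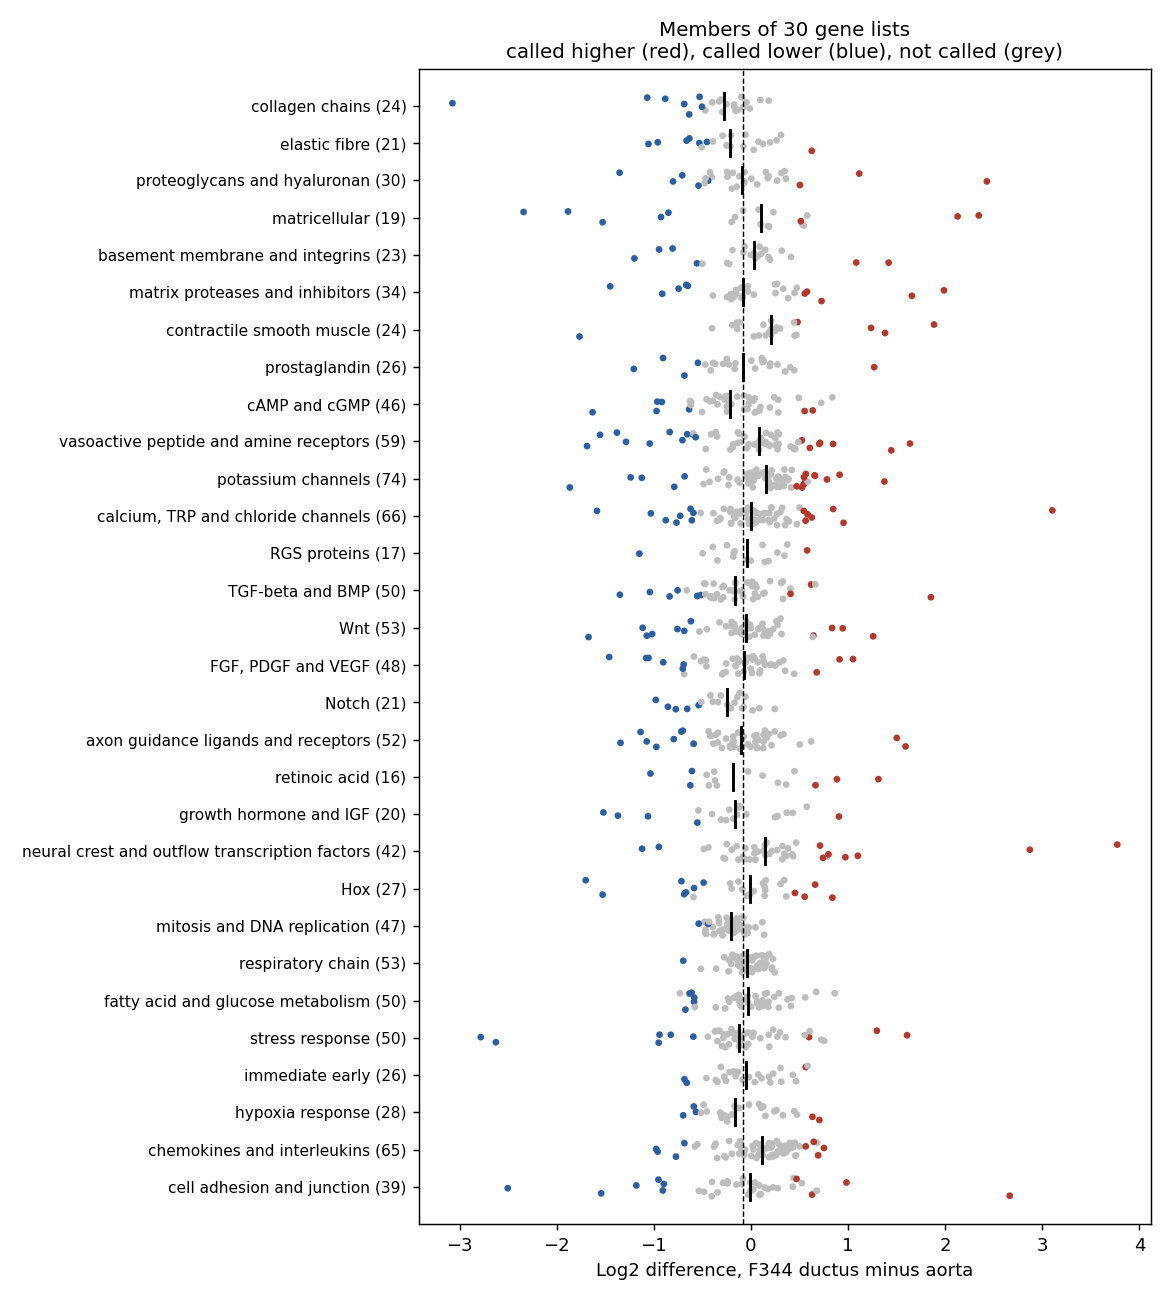
Log2 difference of F344 ductus minus aorta for each measured member of 30 gene lists, with the number measured in brackets, red points for called higher, blue for called lower and grey for not called. Short black bars mark list medians and the dashed line the median of all genes (-0.08); collagen, Notch and mitosis medians lie to its left, and contractile and outflow factor medians to its right.

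The contractile genes that passed were mostly higher. Of 24 genes 4 were higher and 1 lower, with a median of 0.21 that was above 0 under each rescaling. Des (desmin, the muscle intermediate filament) read 11.54 and 11.16 in the ductus and 10 and 9.94 in the aorta, 2.61-fold higher (limma adjusted p = 0.0119). Actg2, the enteric smooth muscle actin, read 13.04 and 12.91 against 11.83 and 11.65, and calponin Cnn1 was higher by 0.48. Acta2, the main actin of vascular smooth muscle, read 13.78 and 13.82 against 13.66 and 13.69 and did not pass (0.13 ± 0.11, SE), nor did the myosin Myh11 (0.25 ± 0.18) or the regulator Myocd (0.21 ± 0.14). Casq2 was the only lower member, at 8.53 and 8.63 against 10.26 and 10.43. With an F344 array left out 1 or 2 higher members stayed called, and Sorbs2 and Casq2 were in the core.

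Prostaglandin genes differed at the level of synthesis and of receptors. Ptger4 encodes the EP4 receptor, through which prostaglandin E2 relaxes the ductus. It read 10.75 and 10.53 in the ductus and 9.42 and 9.33 in the aorta, 2.41-fold higher (limma adjusted p = 0.0146; Entrez 84023), and it was not called once an F344 array was left out. The receptor Ptger3, which couples to lower cAMP, was lower (-0.90), as were the phospholipase Pla2g4a, which releases arachidonic acid (-1.21, in the core), the cyclooxygenase Ptgs1 (-0.68) and Ptgfrn (-0.55). Ptgs2 (-0.41 ± 0.19, SE), the prostaglandin transporter Slco2a1 (0.45 ± 0.15) and the degrading enzyme Hpgd (-0.29 ± 0.19) did not pass. In all 1 of 26 genes was higher and 4 were lower, and the list median was -0.08 as deposited and 0.13 after centring. Centring gave 3 higher and 1 lower member, and with an F344 array left out 0 were higher and 1 or 2 lower.

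Cyclic nucleotide genes had 2 higher and 5 lower members of 46. The phosphodiesterases Pde8a and Pde4d, which break down cAMP, were lower by -1.63 and -0.96 on the log2 scale, and Pde8a read 7.83 and 7.68 against 9.43 and 9.34. Adenylyl cyclases went opposite ways, Adcy2 higher (0.64) and Adcy5 lower (-0.64). The natriuretic peptide receptors Npr3 (-0.97) and Npr1 (-0.92) were lower. The protein kinase A subunit Prkar2b was higher (0.55). With any F344 array left out 0 members were higher and 2 or 3 lower, and after centring 6 were higher and 4 lower. Pde8a and Npr3 were in the core.

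Receptors for vasoactive peptides and amines had 7 higher and 10 lower members of 59. Muscarinic receptors Chrm3 (1.45) and Chrm2 (0.85), Grpr (1.64), the angiotensin receptor Agtr1a (0.61) and the peptide ligands Edn1 (endothelin-1, 0.71) and Adm (adrenomedullin, 0.70) were higher. Chrm3 read 8.04 and 7.89 against 6.51 and 6.52, whereas Chrm2 at 6.37 and 6.71 was dim. The vasopressin receptor Avpr1a was lower at 7.50 and 7.32 against 9.17 and 9.02 (3.22-fold). So were the incretin receptor Glp1r (-1.55), Calcrl, a receptor for calcitonin gene-related peptide and adrenomedullin (-1.38), the angiotensin-converting enzyme Ace (-1.29), Vipr2 (-1.04) and the ATP receptor P2rx1 (-0.84). Grpr, Chrm3, Avpr1a, Glp1r and Ace were in the core. Leaving out an F344 array left 2 or 3 higher and 3 to 6 lower members. Centring turned the balance to 11 higher and 7 lower.

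Potassium channels, which set the membrane potential of smooth muscle, had 11 higher and 5 lower members of 74. Higher were Abcc9 and Kcnj8, the subunits of the vascular ATP-sensitive channel. Abcc9 (Entrez 25560) read 11.08 and 11.04 in the ductus and 9.71 and 9.66 in the aorta, 2.59-fold higher (limma adjusted p = 0.00288), and Kcnj8 (Entrez 25472) read 9.99 and 10.07 against 9.15 and 9.08, 1.88-fold higher. Among the other higher members, 7 were dim in both vessels, such as Kcnc2 (5.91 and 5.85 against 5.07 and 5.12). Kcna5 (Entrez 25470) encodes an oxygen-sensitive voltage-gated channel studied in ductus closure, and it read 7.74 and 7.76 against 9.63 and 9.61, 3.64-fold lower (limma adjusted p = 0.00118). Kcnma1, the pore of the large-conductance calcium-activated channel, read 7.90 and 8.0 against 9.10 and 9.28, and Kcnq1 (-1.12), Kcnk6 (-0.79) and Kcnab1 (-0.68) were lower too. Abcc9, Kcna5, Kcnma1, Kcnq1 and Kcnc2 were in the core. When an F344 array was left out 2 to 4 higher and 3 or 4 lower members were called, and after centring 17 and 4.

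Calcium, transient receptor potential and chloride channel genes had 7 higher and 8 lower members of 66. The calcium pump Atp2a3 (-1.59), the cation channels Trpm8 (-1.03) and Trpc6 (-0.88) and the calcium channel subunit Cacnb4 (-0.77) were lower, and Trpc5 (0.95), Trpm3 (0.85), Cacna2d2 (0.63) and Cacnb2 (0.56) were higher beside Clic6. Trpm3, a steroid-activated cation channel, read 7.76 and 7.71 in the ductus and 6.85 and 6.92 in the aorta. The pore genes Cacna1c (-0.11 ± 0.12, SE) and Cacna1g (-0.01 ± 0.13) did not pass, and their sign turned after rescaling. Without any 1 F344 array the list had 2 or 3 higher and 3 lower members, and after centring it had 14 higher and 3 lower. Clic6, Atp2a3, Trpc6, Cacnb4 and Trpm3 were in the core. Of 17 regulators of G protein signalling Rgs5 was higher (0.58), at 13.37 and 13.28 against 12.79 and 12.70, and Rgs7 was lower (-1.15). Rgs5 did not pass once an F344 array was left out.

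TGF-beta and BMP genes had 3 higher and 6 lower members of 50. The ligands Inhba, Bmp4 (0.62) and Bmp5 (0.41, dim) were higher. The receptors Bmpr1b (-1.35) and Acvrl1 (-0.55), the antagonist Chrdl1 (-1.04) and the intracellular Smad6 (-0.84), Smad9 (-0.76) and Smad7 (-0.52) were lower. Smad6 and Smad7, which dampen the pathway and are themselves induced by it, read 9.72 and 9.48 against 10.42 and 10.45, and 8.76 and 8.62 against 9.05 and 9.36. Tgfb1 did not pass (-0.38 ± 0.18, SE). Inhba and Bmpr1b were in the core. The counts were 1 or 2 higher and 1 to 3 lower with an F344 array left out, the fewest lower without F344 DA replicate 2. They were 7 higher and 4 lower after centring.

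Wnt genes had 4 higher and 7 lower members of 53. Higher were the secreted inhibitors Sfrp1 (1.26) and Sfrp2 (0.95), the receptor Ror2 (0.84) and Rspo3, which strengthens Wnt signals (0.64). Sfrp1 read 11.85 and 11.90 in the ductus and 10.68 and 10.55 in the aorta. Lower were the ligands Wnt2b (-1.11) and Wnt5a (-1.02), the inhibitor Dkk1 (-1.67) with Dkk3 (-0.76), and the receptors Lgr4 (-1.07) and Fzd8 (-0.69). Sfrp1, Wnt2b, Dkk1 and Lgr4 were in the core. An F344 array less left 1 or 2 higher and 3 to 5 lower members, and centring gave 6 and 5.

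Growth factor genes of the FGF, PDGF and VEGF families had 3 higher and 6 lower members of 48. The receptor Fgfr2 was higher at 10.69 and 10.69 against 9.60 and 9.68 (2.07-fold), as were the ligands Pdgfd (0.91) and Pdgfc (0.68). Fgf7, a ligand of an Fgfr2 splice form, was lower at 6.29 and 6.12 against 7.83 and 7.50 (2.75-fold). The fibroblast receptor Pdgfra (-1.08), Vegfd (-1.05), the feedback phosphatase Dusp6 (-0.90), Fgf16 (-0.70) and the endothelial receptor Tek (-0.69) were lower as well. Vegfa did not pass (-0.51 ± 0.18, SE; limma adjusted p = 0.0866). Fgfr2 and Fgf7 were in the core. Only 1 or 2 higher and 1 to 3 lower members passed without an F344 array, and centring turned the balance to 5 higher and 3 lower.

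Notch genes were lower where they passed. Of 21 genes 0 were higher and 5 lower, the target genes Heyl (-0.98) and Nrarp (-0.85), the modifier Mfng (-0.77), the ligand Jag2 (-0.66) and the receptor of arterial smooth muscle Notch3 (-0.54). Heyl read 9.81 and 9.59 in the ductus and 10.78 and 10.58 in the aorta. The ligand Jag1 read 11.51 and 11.34 against 11.70 and 11.77 and did not pass (-0.31 ± 0.14, SE). The median was -0.24 as deposited and below 0 under each rescaling. Without F344 aorta replicate 2 only 1 gene passed, and Heyl was in the core.

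Guidance genes, known from axon growth and vessel patterning, had 2 higher and 8 lower members of 52. The class 3 semaphorins Sema3a and Sema3d were higher by 1.59 and 1.5, and Sema3d read 11.39 and 11.14 against 9.90 and 9.63. Netrin Ntn1 (-1.34), Sema6d (-1.14), the Slit receptor Robo1 (-1.07), the ephrin receptors Epha3 (-0.97) and Epha1 (-0.79) and Sema5b (-0.72) were lower. Both semaphorins stayed called without each F344 array, whereas the lower members fell to 5 without F344 DA replicate 1, 2 without F344 DA replicate 2, 3 without F344 aorta replicate 1 and 4 without F344 aorta replicate 2. After centring 4 were higher and 6 lower. Sema3a, Sema3d, Ntn1 and Epha3 were in the core.

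Retinoic acid genes had 3 higher and 3 lower members of 16. Enzymes on the route of retinoic acid synthesis, Aldh1a2 (1.31), Rdh10 (0.89) and Aldh1a1 (0.67, dim), were higher. The degrading enzyme Cyp26b1 (-0.62), the binding protein Crabp2 (-0.61) and the retinol carrier Rbp4 (-1.03) were lower. Aldh1a2, the main synthesising enzyme of the embryo, read 8.68 and 8.43 in the ductus and 7.41 and 7.08 in the aorta. Of these only Rbp4 was in the core, and 1 or 2 higher members and 1 lower member passed without an F344 array, against 4 and 1 after centring. In the growth hormone and IGF list the receptor Ghr was higher (0.91), and Stc1 (-1.52), Igfbp2 (-1.37), Igfbp6 (-1.06) and Igf2r (-0.55) were lower. In that list 1 higher and 3 lower members passed with any 1 F344 array left out, and 3 and 3 after centring.

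Transcription factors of the neural crest and cardiac outflow tract had 7 higher and 2 lower members of 42, with a median of 0.15 that was above 0 under each rescaling. After Tfap2b and Mab21l2 came Tbx3 (1.10), the second AP-2 gene Tfap2a (0.97), Mab21l1 (0.80), Dlx1 (0.74) and Prrx2 (0.71). Tbx3 read 7.79 and 7.91 against 6.65 and 6.84, while Tfap2a was dim at 6.36 and 6.37 against 5.53 and 5.26. Meox2 (-1.12) and Twist2 (-0.95) were lower. Without F344 aorta replicate 2 the number of higher members was 3, and Tfap2b, Mab21l2 and Tbx3 were in the core.

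Hox genes, which record position along the body axis, moved both ways. Hoxa7 (-1.70), Hoxb7 (-0.69), Hoxb8 (-0.59) and Hoxb9 (-0.72), with Hoxc5 (-1.53), Hoxd4 (-0.67) and Hoxc4 (-0.49), were lower in the ductus. Hoxb3 (0.45), Hoxd3 (0.66) and Hoxa4 (0.55) were higher, with the Hox partner Meis1 (0.84). Hoxa7 read 6.93 and 7.04 in the ductus against 8.69 and 8.68, and Meis1 read 10.91 and 10.93 against 10.07 and 10.09. In all 4 of 27 measured genes of the list were higher and 7 lower, and Hoxa7, Hoxc5 and Meis1 were in the core. Of the 7 lower genes 4 were dim. Leaving out an F344 array left 1 or 2 higher and 2 or 3 lower members, and centring turned the balance to 5 higher and 2 lower.

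Few genes of cell division and energy use passed. Of 47 mitosis and replication genes 0 were higher and 2 lower, Kif20b (-0.54) and Hmmr, although the list median was -0.21 as deposited and 0.01 after centring. Of 53 respiratory chain genes 1 passed, the oxygen-regulated subunit Cox4i2 (-0.70). Of 50 genes of fatty acid and glucose use 0 were higher and 5 lower, among them Acsl1 (-0.67), the hexokinase Hk2 (-0.63), Ldhb (-0.61) and Acadm (-0.58). The last of these counts rests on the scaling and on single arrays. The list had 7 higher and 1 lower members after centring, 3 and 2 after cyclic loess and 2 and 3 after repeated quantile normalization. Without F344 DA replicate 2 the number of lower members was 0, and without any other F344 array it was 1. Neither lower mitosis gene passed with an F344 array left out or after centring.

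Stress and hypoxia genes moved singly. Beside Nupr1 and Slc7a3, Aldh1l2 (-0.95), the antioxidant genes Sod3 (-0.94) and Gclc (-0.83) and the cell cycle inhibitor Cdkn1a (-0.59) were lower. Hspb1, the stress-induced factor Atf3 (1.30) and the asparagine synthetase Asns (0.60) were higher. Nupr1, Atf3, Asns and Aldh1l2 are all known targets of the integrated stress response, and Atf3 read 9.08 and 8.52 in the ductus against 7.48 and 7.52, opposite to Nupr1. The oxygen-regulated factor Epas1 was lower (-0.57), whereas Hif1a did not pass (-0.24 ± 0.13, SE). The stress list had 3 higher and 6 lower members of 50, with 0 or 1 and 4 without an F344 array and 7 and 4 after centring. The hypoxia list had 2 higher and 3 lower members of 28, with 0 and 0 or 1 without an F344 array and 5 and 0 after centring. Among 26 immediate early genes Nr4a1 was higher (0.56) and Klf2 (-0.68) and Jund (-0.66) were lower, and with any F344 array left out none of the list passed.

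Immune signals and adhesion genes had members on both sides. Of 65 chemokine and interleukin genes 4 were higher and 4 lower, with Il15 (0.75) and Il13ra1 (0.56) higher and Csf1 (-0.98), Cx3cl1 (-0.96) and Lifr (-0.77) lower. The higher Cxcl2 and Cxcl11 were dim, at or under 6.47 on every array. With an F344 array left out the list had 0 or 1 higher members, and 1 lower member without F344 DA replicate 2 or F344 aorta replicate 1, 3 without F344 DA replicate 1 and 5 without F344 aorta replicate 2. After centring 15 were higher and 3 lower. Of 39 adhesion and junction genes the cadherins Cdh8, Cdh13 (-1.54) and Cdh6 (-1.18) and Alcam (-0.90) were lower with the arterial gap junction genes Gja5 (-0.95) and Gja4 (-0.91). Gpm6b, Cntn3 (0.98), L1cam (0.63) and Mcam (0.47) were higher. Of these 4 higher and 6 lower members 2 and 5 passed with any 1 F344 array left out, and centring gave 8 and 6.

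Cell type markers were read in bulk tissue, where fewer cells of a type and less RNA per cell cannot be told apart. Smooth muscle markers were far above the array median on all 4 arrays, with means of 11.76 and 11.62 in the ductus and 11.44 and 11.38 in the aorta. Endothelial markers were lower, with 0 of 19 higher and 9 lower and a median of -0.55 that stayed below 0 under each rescaling. Their means were 8.54 and 8.46 in the ductus and 9.04 and 8.96 in the aorta. The 9 included the arterial factor Sox17 (-1.08), Sox18 (-0.82), Cldn5 (-0.93), Gja5, Gja4, Plvap (-0.74) and Tek, whereas the pan-endothelial Pecam1 (-0.44, limma adjusted p = 0.152) and Cdh5 (-0.24, limma adjusted p = 0.313) did not pass. From 2 to 5 remained called with an F344 array left out, the fewest without F344 aorta replicate 2. Edn1, a product of endothelium, was higher. The part of these cells in the lower Notch genes and in the lower Ptgs1, Npr1, Ace, Smad6 and Klf2 was not tested.

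Macrophage markers had 0 of 18 higher and 4 lower, Csf1r (-0.99), C1qc (-0.71), Tyrobp (-0.52) and C1qa (-0.49), with means of 7.31 and 7.20 against 7.87 and 7.58. At most 1 of them passed with an F344 array left out, and after centring 1 marker was higher and 1 lower. Adventitial fibroblast markers had 1 of 13 higher, Dpep1, and 5 lower, Pi16 (-1.34), Pdgfra, Scara5 (-1.06), Gsn (-1.04) and Mfap5, with means of 9.71 and 9.58 against 10.02 and 9.86. The lower adventitial markers fell to 2 without F344 DA replicate 1 and to 1 without any other F344 array, and centring left 4. The part of these cells in the lower collagen and elastic fibre genes was not tested. Of 18 epithelial markers 4 were lower, Grhl3, Cldn1, Krt8 and Krt18 (-1.36), and 1 was higher, the dim Epcam (4.91 on both ductus arrays). Most of the list went the other way, since 14 of the 18 had a difference above 0, with a median of 0.14. Cdh1, the defining epithelial cadherin, lay between 6.06 and 6.35 on all 4 arrays, under the array median. Neuronal markers were higher for Syt1 (1.34) and Slc6a2 (0.71) and lower for Map2. The thyroid marker Tg was lower (-0.76), as were Cd4 (-0.72) of the lymphocyte list and Tnnt3 (-0.52) of the skeletal muscle list. Yet 5 of 7 genes of the thyroid and parathyroid list had a difference above 0, with a median of 0.31. So did 7 of 11 genes of the lymphocyte list, with a median of 0.16. Ankrd1 (0.60) of the cardiomyocyte list and the dim Elovl3 (0.39) of the adipocyte list were higher. Of the 11 adipocyte genes, all of them dim, 5 had a difference above 0, with a median of -0.11. None of the lymphatic endothelial, mast cell, erythroid, platelet, Schwann cell or chondrocyte markers passed. Erythroid markers had means of 8.36 and 7.51 in the ductus and 7.89 and 7.27 in the aorta, so replicate 1 exceeded replicate 2 in both vessels.

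**Figure D4:**
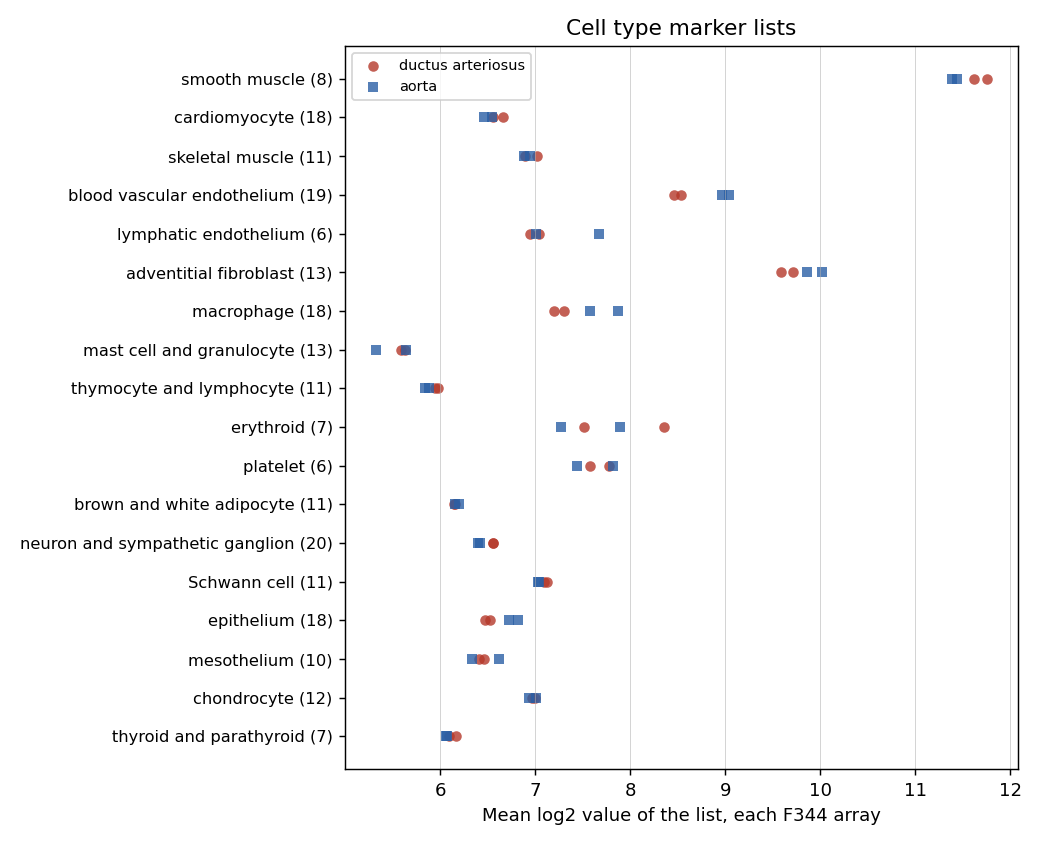
Mean log2 value of each of 18 marker lists on each F344 array, with the number of genes measured in brackets, red circles for ductus and blue squares for aorta. Endothelial, adventitial and macrophage means are lower on both ductus arrays, and erythroid means differ more between replicates than between vessels.

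The same vessels of BN rats, which share no array with F344 but share its variance estimate, gave a comparison on which the F344 calls could be read again. Of the 13223 genes outside the receptor families, BN had 88 higher and 119 lower in the ductus. Of the 468 genes higher in F344, 66 (14.1%) were also called higher in BN, which is 75% of the BN genes, and of the 742 lower in F344, 102 (13.7%) were called lower in BN, 85.7% of the BN genes. None was called in opposite directions. The BN difference had the F344 sign for 426 higher and 653 lower genes. How many of all genes had either sign in BN was not counted, so these counts have no share to be read against. Over all 13223 genes the median BN difference was -0.02. The receptor families rose in BN too, with medians of 5.29 and 5.61 on the ductus arrays and 4.93 and 5.09 on the aorta arrays. The part of such a rise of dim signal in the shared signs was not tested. The spread between BN replicates was wider, with an SD of the replicate difference over genes of 0.339 in BN ductus and 0.251 in BN aorta, against 0.206 in F344 ductus and 0.183 in F344 aorta.

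All the leading F344 genes, 20 in each direction, had the same sign in BN. For the 20 higher ones the median difference was 2.04 in F344 and 1.51 in BN, and 14 were called in BN. Tfap2b differed by 3.32 and Clic6 by 2.90 in BN, and Sorbs2 (2.09) and Grpr (1.85) differed by more in BN than in F344. For the 20 lower ones the medians were -1.99 and -0.95, and 10 were called. Col8a1 differed by -2.23 and Pcp4 by -1.90 in BN, while Nupr1 (-0.79), Grhl3 (-0.54), Casq2 (-0.49), Corin (-0.48) and Postn (-0.52) were not called there. These genes were chosen for their size in F344, which favours larger values there, so no test was made over them. Gene by gene, limma called no strain difference of the vessel difference (smallest adjusted p = 0.107), and 1009 of the 13223 genes had an unadjusted p under 0.05. That count of called genes was 47 without BN DA replicate 1 and 32 without BN DA replicate 2.

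**Figure D5:**
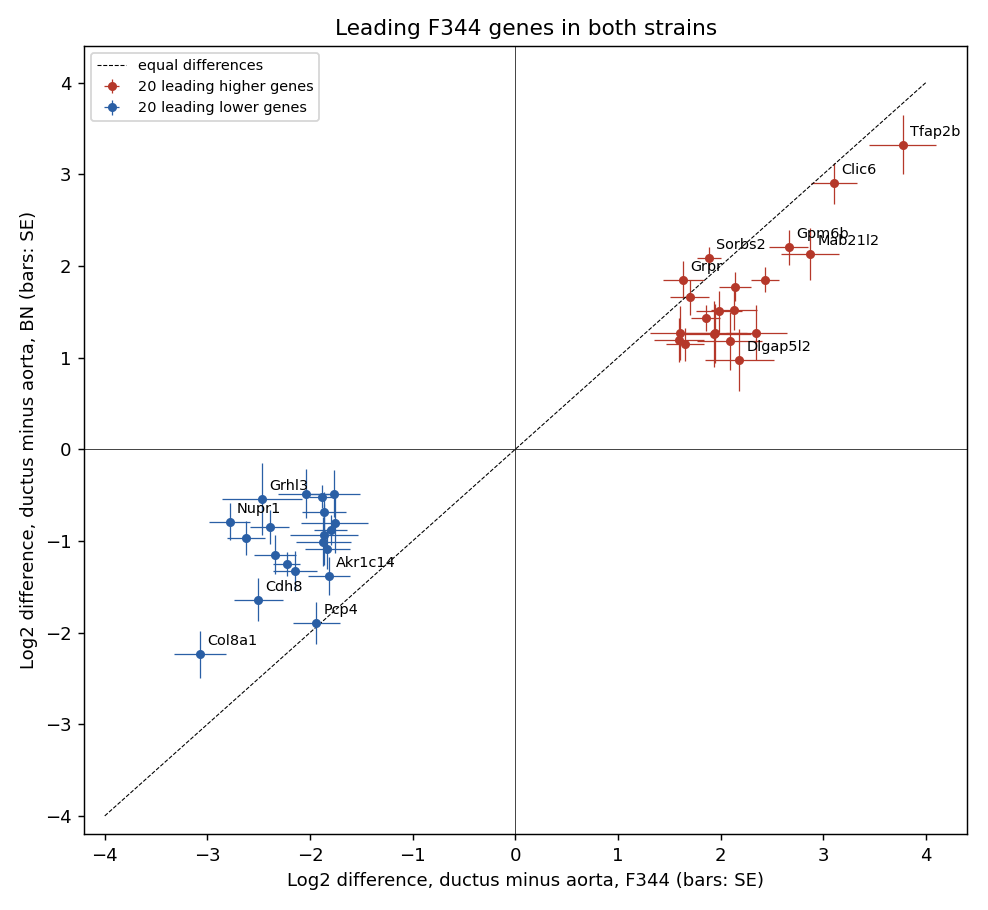
Log2 difference of ductus minus aorta in F344 (horizontal axis) against that in BN (vertical axis) for the 20 leading genes higher and the 20 lower in F344, with bars for the standard error. All points lie in the quadrants of equal sign, red points close to the dashed line of equal differences (medians 2.04 and 1.51) and most blue points between it and 0 in BN (medians -1.99 and -0.95).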

How the data were processed

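Values were used as deposited. They are taken as log2 from their range of 1.07 to 14.2, and RMA, which corrects background, normalizes arrays and summarises probes, is named in the submitters' processing notes. Its version, its settings and the genome build behind the probes were not given in the sources used here. Of 29215 probe sets, 15310 carry 1 gene symbol in the platform annotation and 323 carry several, and the others are unnamed here. Entrez identifiers of 15279 were found in RefSeq (GRCr8). For the 527 genes with more than 1 probe set, the brightest on average over the 8 arrays was used.

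One limma model (version 3.58.1, R 4.3.3) with a mean per group was fitted to all 8 arrays and 14506 genes, with eBayes moderation (4 residual and 5.25 prior degrees of freedom) and two-sided tests. Array medians were 6.96 to 7.05, and the number of arrays limits the precision. The procedure was checked on simulated data with independent normal errors. The simulation held no shift of dim signal between vessels and no correlation between same-numbered arrays. The check therefore covers neither.

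The comparison, the gene lists and the named genes were chosen with earlier results of these data known. Named were the 20 largest called differences each way of at least 2-fold, with the brighter vessel above 7.01 and predicted and Spetex genes passed over, up to 6 called members of each list each way, the 10 genes with the smallest p for a strain difference, and 25 measured genes of ductus biology. The alternatives tried are a variance trend, robust moderation, filters, rescalings, array weights, a replicate block, fewer arrays and a 2-fold minimum. Probe sets of multi-copy families can bind related transcripts. Spetex genes and receptor families are not described.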

Additional observations from a re-analysis of the deposited data

Results flagged for a closer look

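In 6 of the 250 named genes that were called, both ductus arrays lay on one side of the aorta arrays in F344 and on the other side in BN. The named genes include the 10 with the smallest p for a strain difference, a choice that favours such genes. The strain difference given for each is the F344 difference minus the BN difference, and limma called none of them (Benjamini-Hochberg adjusted p from 0.107 to 0.322). Glp1r, the incretin receptor gene, was lower in F344 ductus (7.67 and 7.80 against 9.16 and 9.41) and higher in BN ductus (9.61 and 10.43 against 9.40 and 9.47), a strain difference of -2.14 ± 0.33 (SE). Sphkap, which encodes an anchor protein of protein kinase A, read 7.19 and 7.07 against 8.61 and 8.52 in F344 and 8.70 and 8.89 against 8.53 and 8.15 in BN, a strain difference of -1.89. Npr3, the clearance receptor of natriuretic peptides, had a strain difference of -1.46 and Hmmr of -0.70, and both were lower in F344 ductus with BN arrays separated the other way. Mmp2 went the other way, at 12.51 and 12.35 against 11.75 and 11.96 in F344 and 11.61 and 11.82 against 11.92 and 12.11 in BN, a strain difference of 0.88. For Bmp5, dim on all arrays, it was 0.61. Of the 1210 called F344 genes, 37 separated the opposite way in BN, 30 of them lower and 7 higher in F344 ductus. Groups of 2 arrays separate easily. The matching count over all 13223 genes was not made, so the 37 have no share to be read against.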

How the results depend on the processing

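The count of 468 higher genes was 210 without dim genes, 306 after repeated quantile normalization, 1197 after centring on brighter genes, 1012 with array weights, 939 with only the F344 arrays and 100 with a 2-fold minimum. The count of 742 lower genes was 306 after centring, 1675 with array weights, 1443 with only the F344 arrays and 157 with a 2-fold minimum. A variance trend, robust moderation, cyclic loess, averaging each gene's probe sets and leaving out receptor genes kept both counts within 1.5 times. With 1 array left out the higher count ranged from 113 to 725, the lower from 178 to 1168 and the count of strain differences from 0 to 47. A group left with 1 array was assumed to vary like the others. The fit with the replicate block gave 730 higher and 1206 lower genes and 2 strain differences. Deviations of same-numbered arrays from their group means correlated at 0.273, 0.194, 0.36, -0.012, 0.157 and 0.548 over the 6 pairs of groups, so 5 of 6 exceeded 0.1, and the one under it was F344 aorta with BN ductus. Erythroid markers were higher on replicate 1 in all 4 groups. The labels name no shared source for a number, and since 1 correlation missed 0.1 the fit without the block was kept.

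Of 250 named genes that were called, 0 changed direction under any alternative. Those that lost the call numbered 32 after repeated quantile normalization, 45 after cyclic loess, 54 after centring, 24 without receptor genes and from 116 to 142 without 1 F344 array. Signs turned only for genes that were not called. Under most alternatives a called gene could not turn. Refits of the same values keep each difference, and leaving out an F344 array cannot reverse vessels whose arrays do not overlap. Centring shifted every difference by the same amount, less than the smallest called difference of 0.39. The count of 0 therefore says little about stability. After repeated quantile normalization Cacna1c was at 0.01, Cacna1g at 0.081, Itgbl1 at 0.045 and Ppargc1a at -0.11, after cyclic loess Cacna1c was at 0.049, Cacna1g at 0.13 and Itgbl1 at 0.14, and after centring they were at 0.099, 0.20 and 0.21. With 1 array left out Itgbl1 ranged from -0.14 to 0.13, Cacna1g from -0.048 to 0.025 and Ppargc1a from -0.048 to 0.24. The cause of these changes was not tested. Signal near the array median limits the dim genes.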

Other observations

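In the RefSeq order of the 13152 measured genes that could be placed, 185 pairs of adjacent genes were both called, and 136 of these (73.5%) went the same way, 61 both higher and 75 both lower in F344 ductus. Over all pairs of called genes, wherever they lie, 53.6% went the same way, so a same-way pair is common without any relation. That share also counts the called receptor genes, 818 higher and 0 lower, which the adjacent pairs leave out. No test was made of the difference between 73.5% and 53.6%, which rest on unlike gene sets. The 185 pairs include multi-copy gene families, and whether their probes read each other's transcripts was not tested. In 35 pairs the symbols shared their first 3 letters, such as Mrgprb, Cyp2b, Scgb1d and Reg3 genes, and 33 of these went the same way, against 103 of the other 150 (68.7%). The pairs given here were picked after their values were seen. Higher pairs included the channel subunits Kcnj8 (0.91) and Abcc9 (1.38), the semaphorins Sema3a (1.59) and Sema3d (1.5), Clic6 (3.10) and the transcription factor Runx1 (0.69), and Lrba (1.56) and Mab21l2 (2.87), whose gene spans overlap. Whether their probes read shared transcripts was not tested. Popdc3 (1.57) and Bves (0.97), membrane proteins of muscle, Mtarc1 (1.12) and Mtarc2 (1.56), and Tnfrsf11b (osteoprotegerin, 1.44) and Colec10 (1.31) were also higher together.

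Lower pairs included the fibrillar collagens Col3a1 (-0.69) and Col5a2 (-0.88), the keratins Krt8 (-1.80) and Krt18 (-1.36), whose products form filaments together, and the small proteoglycans Omd (-1.35) and Aspn (-0.80). The flavin monooxygenases Fmo4 (-0.70), Fmo1 (-1.76) and Fmo2 (-1.52) formed a lower run, as did Hoxb9 (-0.72), Hoxb8 (-0.59) and Hoxb7 (-0.69), and Nupr1 (-2.78), Sgf29 (-0.78) and Sult1a1 (-1.37). In 49 adjacent pairs the genes went opposite ways, for example Ldhb (-0.61) beside Kcnj8 and Dclk2 (-1.03) beside Mab21l2. All genes in these paragraphs beyond the lists were chosen after their values were seen.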
